A study of Homo sapiens with 11 samples.

Results

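Transcriptional targets of the Wnt pathway were followed in total RNA from the human colorectal carcinoma line HCT116. The members were chosen by gene symbol and not by a rule on their values, though with earlier results of these data known. They are AXIN2, NKD1, RNF43, ZNRF3, LGR5, TCF7, LEF1, ASCL2, SP5 and MYC, which makes 10 of the 58699 genes in the authors' table. Cells carried either a control siRNA aimed at luciferase (siLuc) or one aimed at Staufen1 (siStau1), which binds RNA duplexes. Each siRNA was combined with the solvent DMSO or with decitabine (DAC), an inhibitor of DNA methyltransferases, at 500 nM for 5 days. This makes 4 groups of total RNA, 2 libraries in each, so that every group, controls included, carried an siRNA. All libraries came from this single cell line, and the sources used here do not say whether the 2 libraries of a group came from separate cultures. The authors' table gives 1 value per gene and group, in FPKM (fragment counts scaled to transcript length and library size), and no value per library. No spread between libraries can therefore be given, and the depth is unknown.

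In the canonical Wnt pathway, beta-catenin is continually degraded by a complex built on APC and axin proteins until a Wnt ligand engages Frizzled and LRP receptors. Stabilised beta-catenin then enters the nucleus and activates target genes through DNA-binding proteins of the TCF/LEF family. Several targets feed back on the pathway. AXIN2 is a scaffold of the degradation complex, NKD1 binds Dishevelled, and RNF43 and ZNRF3 are membrane ubiquitin ligases that remove Frizzled from the cell surface. In the gut the pathway maintains crypt stem cells, which are marked by LGR5 and ASCL2. HCT116 is known to carry an activating mutation of CTNNB1, the gene of beta-catenin, which stabilises the protein without a ligand. The expression table cannot show that mutation.

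Upstream sequence was examined because TCF/LEF proteins bind DNA directly and DNA methyltransferases, which DAC inhibits, act mainly on CpG dinucleotides. RefSeq windows on GRCh38.p14 were matched for 4 of the 10 genes (RNF43, TCF7, LEF1 and SP5, 6 windows in all). No window was matched for AXIN2, NKD1, ZNRF3, LGR5, ASCL2 and MYC. The 250 bases before each start were searched on both strands for the TCF/LEF core in 4 forms of 7 bases, CTTTGAA and CTTTGAT and also CTTTGTA and CTTTGTT. SP5 and the downstream start of TCF7 were the member windows that held a core, and they are shown for that reason, 5′ to 3′ on the gene's strand with the cores in capitals. The SP5 window is chr2:170715087-170715336 on the plus strand, just before the annotated gene. The TCF7 window is chr5:134123368-134123617 on the plus strand, and it lies within the gene and outside its annotated exons. Of the windows without a core, that of LEF1 lay wholly within its annotated exons. The upstream window of RNF43 was the only one of these that reached beyond its annotated gene.
SP5: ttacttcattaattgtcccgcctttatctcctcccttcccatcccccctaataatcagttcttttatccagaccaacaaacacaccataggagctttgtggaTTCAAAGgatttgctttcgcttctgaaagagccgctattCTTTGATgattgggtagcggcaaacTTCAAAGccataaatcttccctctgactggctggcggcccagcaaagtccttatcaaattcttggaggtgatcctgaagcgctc
TCF7: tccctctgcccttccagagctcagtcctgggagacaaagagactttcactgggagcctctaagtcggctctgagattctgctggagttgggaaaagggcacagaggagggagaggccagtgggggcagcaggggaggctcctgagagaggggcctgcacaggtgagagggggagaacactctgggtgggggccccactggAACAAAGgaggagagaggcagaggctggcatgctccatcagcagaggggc
The SP5 window held 3 cores, whose first bases lay 148, 109 and 84 bases before the start, and the TCF7 window held 1, at 50 bases. Among 35116 windows of this length in the RefSeq table, 11.96% held at least 1 core and 0.122% held 3 or more. The SP5 window had 6 CpG dinucleotides, with an observed over expected ratio of 0.487, against a median of 0.558 over all windows. The TCF7 window shown had 1 CpG, and the window of its upstream start had 22. A match describes letters in the window and is not a measured binding site, and a CpG count is not a measure of methylation.

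Epithelial identity and the targeted gene were checked first. Of 9 listed markers of colorectal epithelium, 7 were at 1 FPKM or more in all 4 groups (EPCAM, CDH1, KRT8, KRT18, KRT19, KRT20 and CDX2), while VIL1 and CDX1 stayed under 1 FPKM. Of 5 markers of other cell types, 4 were under 1 FPKM in every group. COL1A1, a fibroblast collagen, reached 8.60 FPKM in siLuc DAC. The summed level of those 5 markers was 1.96 FPKM without DAC and 10.1 with it under siLuc, and 0.943 and 7.88 FPKM under siStau1. PTPRC and COL1A2 were listed at 0 in both DMSO groups. The sum was thus higher in both DAC groups, as was that of the 9 epithelial markers (2602 against 8205 FPKM under siLuc and 2152 against 5957 under siStau1), and their part in the results below was not tested. The epithelial sum was made up mostly of the keratins KRT8, KRT18 and KRT19. EPCAM, an epithelial adhesion molecule, went the other way: it fell from 259 to 117 FPKM with DAC under siLuc (q-value 0.0157 in the authors' deposited table), and had 338 and 179 FPKM under siStau1, which was not called (q-value 0.0905). At a q-value under 0.05, KRT19, KRT20 and CDX1 were higher with DAC in both arms, and KRT18 in siStau1. Among the markers of other cell types, PECAM1 was called higher with DAC in siLuc, and PTPRC and COL1A1 in siStau1. STAU1 mRNA went from 35.5 FPKM under siLuc to 29.98 under siStau1 in DMSO, and from 33.7 to 27.1 under DAC. Neither knockdown difference in STAU1 was called in the authors' deposited table (q-values 0.767 and 0.685), so the direction follows the labels but the mRNA does not show a strong knockdown.

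The 10 genes differed widely in level in siLuc DMSO cells. MYC, a growth-promoting transcription factor, was the highest at 101 FPKM, above 95.4% of protein-coding genes. RNF43 followed at 33.0 FPKM and AXIN2 at 8.30 FPKM. TCF7 (2.64 FPKM) and ZNRF3 (2.31 FPKM) lay near the middle of all protein-coding genes, at percentiles 50.9 and 49.6. NKD1 (0.587 FPKM) and SP5 (0.277 FPKM) were lower still. LGR5, LEF1 and ASCL2 were listed at 0 in both DMSO groups. The stem cell genes LGR5 and ASCL2 stayed under 0.1 FPKM in all 4 groups, so the table gives no readable level for them in HCT116.

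**Figure D1:**
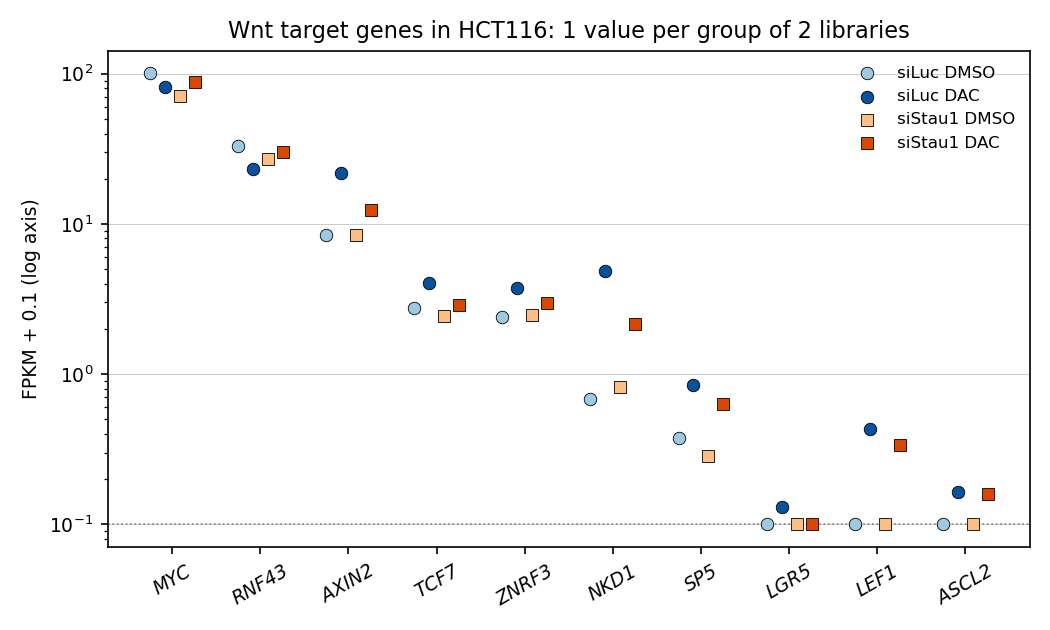
Level of each of the 10 Wnt target genes in the 4 groups, as FPKM + 0.1 on a log axis, with genes ordered by their level in siLuc DMSO. Each point is the authors' single value for a group of 2 libraries, and the dotted line marks genes listed at 0. AXIN2 and NKD1 are highest in siLuc DAC and next highest in siStau1 DAC, while MYC and RNF43 are highest in siLuc DMSO.

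The effect of DAC in control cells was examined by comparing siLuc DAC with siLuc DMSO. AXIN2 and NKD1, both negative feedback genes, had the smallest p-values among the members, and neither was called. By the q-values in the authors' deposited table, none of the members passed 0.05, that is 0 of 10, with 7 tested and LGR5, LEF1 and ASCL2 not tested. Over all genes 13.5% of 17504 tested were called. An unadjusted p under 0.05 was found for 2 of the 7 tested members and for 28.9% of all tested genes. The values are from bulk RNA, in which fewer expressing cells and less RNA per cell cannot be told apart.

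Among the feedback inhibitors, AXIN2 (ENSG00000168646.12, chromosome 17, 65528563 to 65561647, GRCh38) measured 8.30 FPKM in DMSO and 21.8 with DAC under siLuc, and 8.38 and 12.2 FPKM under siStau1. The 2 DMSO groups were nearly equal, and both DAC groups lay above them. Its log2 ratio of FPKM + 0.1, siLuc DAC over siLuc DMSO, was 1.38, and the authors' deposited table lists a p-value of 0.004 and a q-value of 0.0521 for it. That q-value is just over the limit of 0.05. When the deposited p-values were adjusted within this comparison only, AXIN2 passed with 0.0293, as did 16.8% of all tested genes, so its call depends on how many comparisons are adjusted together. The neighbouring protein-coding model AC004805.1 on the same strand shares 1316 of the 5226 exon bases of AXIN2. That model had 1.26 FPKM in siLuc DAC and under 0.6 FPKM in the other groups, and how reads were divided between the genes is not given in the sources used here.

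NKD1 (ENSG00000140807.6, chromosome 16, 50548330 to 50649249) measured 0.587 FPKM in DMSO and 4.73 with DAC under siLuc, and 0.722 and 2.05 FPKM under siStau1. Its DAC groups were again both above its DMSO groups, which were under 1 FPKM. Its log2 ratio with DAC in siLuc was 2.81, which was the largest among the 7 members above 0 in all groups. The authors' deposited table gives it a p-value of 0.00915 and a q-value of 0.0933. At a limit of 0.10 both AXIN2 and NKD1 would be called, beside 17.7% of all tested genes. With a pseudocount of 1 in place of 0.1 the ratio was 1.85.

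The pair of Frizzled ligases had values of opposite direction with DAC in siLuc, and the authors called neither. RNF43 (chromosome 17, 58352500 to 58417595) measured 33.0 FPKM in DMSO and 23.0 with DAC under siLuc, and 26.95 and 29.9 FPKM under siStau1. Its log2 ratio with DAC in siLuc was −0.52 (q-value 0.786 in the authors' deposited table). ZNRF3 (chromosome 22, 28883592 to 29057487) measured 2.31 and 3.64 FPKM under siLuc and 2.36 and 2.89 FPKM under siStau1, and its log2 ratio in siLuc was 0.63 (q-value 0.499 in the authors' deposited table). ZNRF3 was the lower of the pair in all 4 groups. The reads of RNF43 are uncertain, since the model AC004687.2 shares 4326 of its 7505 exon bases on the same strand, and SUPT4H1, with 95.2 FPKM in siLuc DMSO, shares 143. AC004687.2 was listed at 1.52 FPKM in DMSO and 0.585 with DAC under siLuc, and at 0.338 and 1.58 FPKM under siStau1. On the opposite strand TSPOAP1-AS1, under 1 FPKM in all 4 groups, shares 1521 bases.

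LGR5 (chromosome 12, 71439770 to 71586310), a receptor for R-spondins, which protect Frizzled from the ligases, was listed at 0 in siLuc DMSO and both siStau1 groups and had 0.0295 FPKM in siLuc DAC. No fold is given for a gene listed at 0. It was not tested by the authors in any of the 4 comparisons.

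The TCF/LEF factors TCF7 and LEF1 are themselves Wnt targets. TCF7 (chromosome 5, 134114711 to 134151865) measured 2.64 FPKM in DMSO and 3.92 with DAC under siLuc, and 2.33 and 2.80 FPKM under siStau1. Its log2 ratio with DAC in siLuc was 0.55, and the authors' deposited table has a q-value of 0.804. On the opposite strand SKP1, with 477 FPKM in siLuc DMSO, shares 210 exon bases with TCF7. LEF1 (chromosome 4, 108047545 to 108168956) was listed at 0 without DAC in either arm, and DAC-treated cells had 0.333 FPKM under siLuc and 0.238 under siStau1. It was detected only in DAC groups in this table, at low levels that the authors did not test.

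The remaining targets encode other transcription factors. ASCL2 (chromosome 11, 2268495 to 2270952) was likewise listed at 0 without DAC, and reached 0.0650 FPKM with DAC under siLuc and 0.0598 under siStau1. SP5 (chromosome 2, 170715351 to 170718078), whose window carries the 3 cores shown above, measured 0.277 FPKM in DMSO and 0.751 with DAC under siLuc, and 0.187 and 0.529 FPKM under siStau1. Its log2 ratio with DAC in siLuc was 1.17, for which the authors' deposited table has a q-value of 0.507, and all 4 values were under 1 FPKM. MYC (chromosome 8, 127735434 to 127741434) measured 101 FPKM in DMSO and 81.0 with DAC under siLuc, and 71.1 and 87.7 FPKM under siStau1. Its log2 ratio with DAC was −0.31 in siLuc and 0.30 in siStau1, neither of them called in the authors' deposited table (q-values 0.661 and 0.691).

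The median log2 ratio of the 10 genes with DAC in siLuc was 0.68, beside 0.23 over all tested genes. Log2 ratios in these data followed the GC content of transcripts, with a median of −0.95 in the bin of lowest and 1.201 in the bin of highest GC content for DAC in siLuc. The members' longest transcripts ranged from 43.8% to 69.2% GC, against a median of 48.1% over the 10953 protein-coding genes that reached 1 FPKM in both siLuc groups. LGR5 was the only member below that median, and the next lowest was RNF43 at 50.7%. Each ratio was therefore also given relative to the median of protein-coding genes in the same of 20 GC bins. AXIN2 then went from 1.38 to 0.95 and NKD1 from 2.81 to 2.50, so that both stayed above the median of their bins. SP5, in the bin of highest GC content, went from 1.17 to −0.03, and TCF7 from 0.55 to 0.00. SP5 was under 1 FPKM, where the pseudocount lowers the ratio, while the bin medians come from genes at 1 FPKM or more. With a pseudocount of 0.01 the ratio of SP5 before centring was 1.40. MYC and RNF43 moved further below 0, to −0.74 and −0.68. The median of the 10 genes became 0.10. These medians count LGR5, LEF1 and ASCL2 at the pseudocount in DMSO. Over the 7 genes above 0 in both groups the median was 0.63 as measured and 0.00 after centring, with AXIN2, NKD1 and ZNRF3 above 0.

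**Figure D2:**
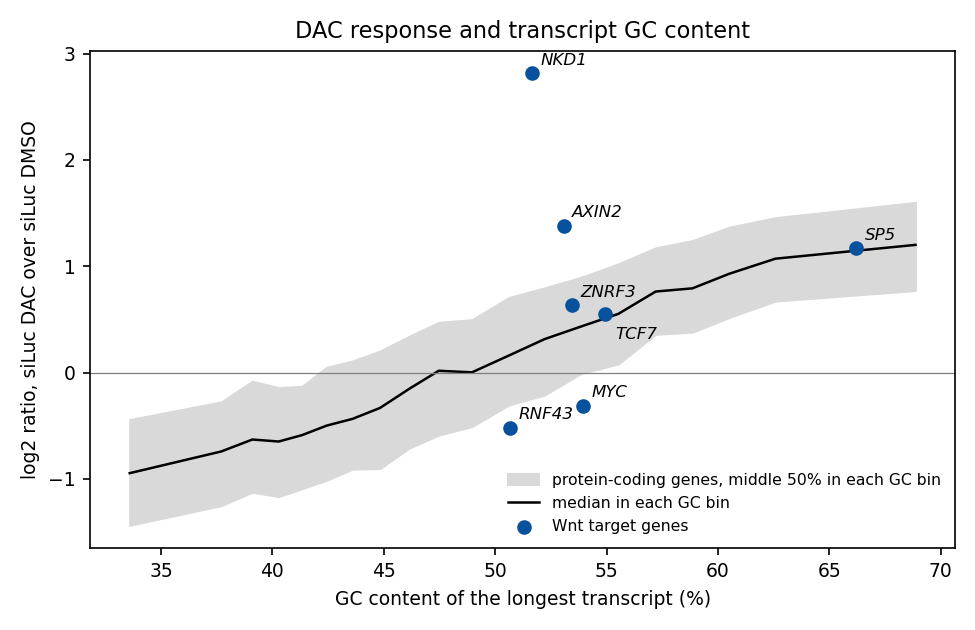
Log2 ratio of siLuc DAC over siLuc DMSO against the GC content of the longest transcript for the 7 Wnt target genes above 0 in all groups. The line gives the median and the grey band the middle 50% of protein-coding genes in each of 20 GC bins. NKD1 and AXIN2 lie above the band, ZNRF3, TCF7 and SP5 inside it, and RNF43 and MYC below it.

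In siStau1 cells the comparison of DAC with DMSO again gave 0 called members of 6 tested, where the share of all 16979 tested genes was 7.46%. All 7 genes above 0 in every group had a higher value with DAC, by log2 ratios from 0.15 for RNF43 to 1.38 for NKD1. Among all tested genes 54.1% had a higher value with DAC, and 3 of the 7 were above the median of their GC bins. For NKD1 the authors' deposited table lists a p-value of 0.0433 and a q-value of 0.255, and for AXIN2, whose log2 ratio was 0.54, a q-value of 0.691. NKD1 was the 1 member with an unadjusted p under 0.05, beside 19.0% of all tested genes. The median of the 10 genes was 0.42, beside 0.11 over all tested genes. It was 0.07 after GC centring, again counting LGR5, LEF1 and ASCL2, which were listed at 0 in DMSO. Over the 7 genes above 0 in both groups the median was 0.30 as measured and −0.02 after centring. Centring within GC bins took NKD1 from 1.38 to 1.17 and AXIN2 from 0.54 to 0.17, while RNF43, ZNRF3, TCF7 and MYC changed sign to between −0.18 and −0.02.

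The response to DAC was compared between the siRNA arms. Subtracting the siLuc log2 ratio from the siStau1 log2 ratio gave −1.43 for NKD1 and −0.84 for AXIN2, and −1.33 and −0.78 after GC centring. For RNF43 and MYC the difference was 0.67 and 0.61, of the opposite sign. It was below 0 for 8 of the 10 genes, beside 51.0% of the 15956 genes tested in both arms. Without the 3 genes listed at 0 in some group, it was below 0 for 5 of 7. SP5 and ASCL2 were close to 0, at −0.04 and −0.05, and turned to 0.30 each after GC centring. The centred difference was below 0 for 6 of the 10 genes and for 4 of the 7, beside 50.3% of all genes tested in both arms. The table used gives no value per library, so this difference between the arms was not tested.

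Knockdown without DAC was examined by comparing siStau1 DMSO with siLuc DMSO. The authors' deposited table calls 0 of the 10 genes, with 6 tested, where the share of all 15893 tested genes was 0.799%. AXIN2, ZNRF3 and TCF7 had log2 ratios of 0.01, 0.03 and −0.17. MYC had the smallest p-value of the members, 0.105, with a log2 ratio of −0.50 (q-value 0.424 in the authors' deposited table). An unadjusted p under 0.05 was found for 0 of the 6 and for 4.30% of all tested genes. The median of the 10 genes was 0, of which LGR5, LEF1 and ASCL2 were at 0 in both groups, beside −0.02 over all tested genes.

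Under DAC the comparison of siStau1 with siLuc gave 0 called members of 7 tested, where the share of all 17263 tested genes was 0.904%. NKD1 had a log2 ratio of −1.17 (q-value 0.638 in the authors' deposited table) and AXIN2 of −0.83 (q-value 0.450). Again 0 members had an unadjusted p under 0.05, beside 6.95% of all tested genes. RNF43 and MYC were the members above 0, at 0.37 and 0.11. The median of the 10 genes was −0.37, beside −0.14 over all tested genes, and after GC centring it was −0.05. This comparison shares the siLuc DAC libraries with the DAC comparison in siLuc, so the low values of NKD1 and AXIN2 here and their high values there rest on the same siLuc DAC measurement.

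**Figure D3:**
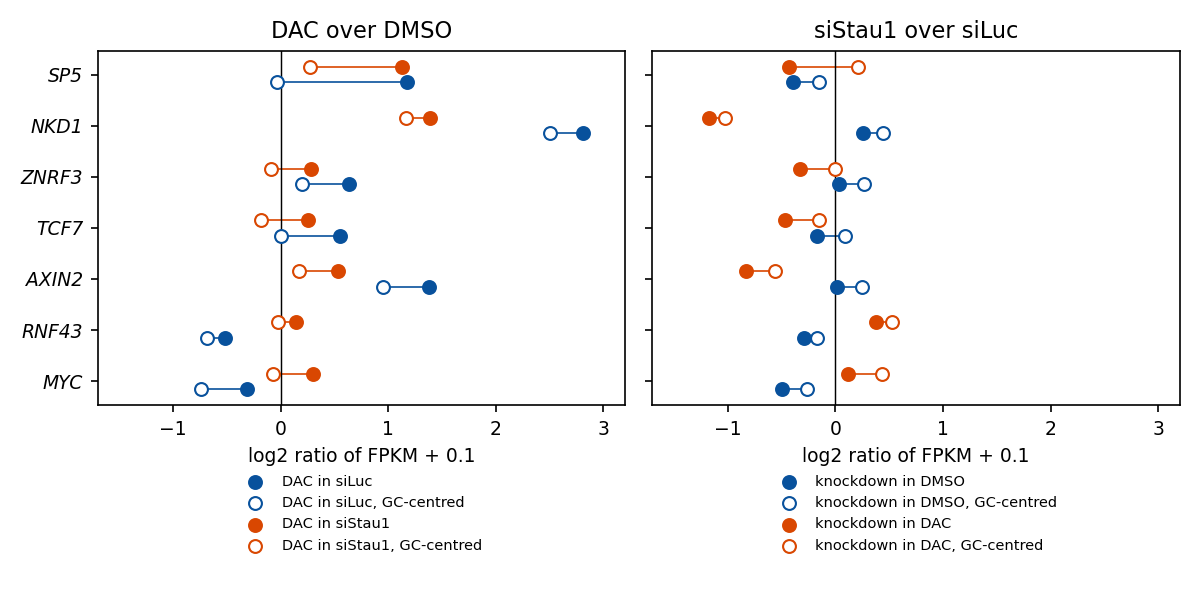
Log2 ratios of FPKM + 0.1 for the 7 Wnt target genes above 0 in all groups, DAC over DMSO on the left and siStau1 over siLuc on the right. Filled points are ratios as measured and open points the same ratios centred within GC bins, each from 1 value per group. With DAC in siLuc, centring takes NKD1 from 2.81 to 2.50 and AXIN2 from 1.38 to 0.95, and SP5 and TCF7 to about 0.

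Across the 4 groups, siLuc DAC had the highest value for 8 of the 10 genes, that is for all but RNF43 and MYC. The same was true of 42.7% of the 14386 genes tested in all 4 comparisons. The full order siLuc DAC, then siStau1 DAC, then both DMSO groups was seen for 7 of the 10 genes and for 32.4% of those tested genes. Of the 7 members above 0 in every group, 5 had this order (AXIN2, NKD1, ZNRF3, TCF7 and SP5). The 3 others, LGR5, LEF1 and ASCL2, were listed at 0 in both DMSO groups and did not exceed 0.333 FPKM in any group. These 3 and SP5 were not tested in all 4 comparisons, so they lie outside those tested genes. The shares use values as measured, without GC centring. Transcripts of high GC content were typically higher with DAC in siLuc and lower with knockdown under DAC, the direction of this order. All members but LGR5 lay above the median GC content given earlier. The part of GC content in these shares was not tested.

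The pattern of AXIN2 over the 4 groups was compared with that of 10685 other protein-coding genes at 1 FPKM or more in all groups, by the Euclidean distance between centred log2 profiles. The 5 nearest were PRDM11 (distance 0.035), ZBTB17 (0.036), GHDC (0.046), TGFB1I1 (0.051) and ATP13A1 (0.066). ZBTB17, for example, went from 7.45 to 18.9 FPKM with DAC under siLuc and from 7.40 to 10.9 under siStau1, and was not called (q-value 0.0890 under siLuc in the authors' deposited table). GHDC alone among the 5 was called with DAC in siLuc (q-value 0.0372 in that table). With 4 points such likeness is common, and 1441 genes lay within a distance of 0.5.

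Of 78 other genes of the pathway, grouped by role, 50 reached 1 FPKM in some group. With DAC in siLuc the authors tested 57 of them and called 10, or 17.5%, of which 8 were higher and 2 lower. Over all tested genes 8.71% were called higher and 4.78% lower there. In siStau1 they tested 56 and called 7, or 12.5%, of which 4 were higher and 3 lower, beside 4.56% and 2.89% over all tested genes. An unadjusted p under 0.05 was found for 22 of the 57 in siLuc and 16 of the 56 in siStau1. The shares of all tested genes were 28.9% and 19.0%. With knockdown in DMSO 0 of 47 were called and 0 had an unadjusted p under 0.05, beside 0.799% and 4.30% of all tested genes. With knockdown in DAC 1 of 58, LGR6, was called and 3 had an unadjusted p under 0.05, beside 0.904% and 6.95%.

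Among the 19 Wnt ligands, WNT9A rose with DAC by log2 ratios of 2.51 in siLuc, where it reached 3.47 FPKM, and 2.25 in siStau1 (q-values 0.00162 and 0.0142 in the authors' deposited table). WNT11 rose in siLuc from 0.166 to 2.05 FPKM (q-value 0.0388 in that table), and had 0.197 and 1.43 FPKM in siStau1, where it was not called (q-value 0.607). WNT16 fell in both arms, from 15.9 to 1.06 FPKM in siLuc and to 2.74 from 20.3 FPKM in siStau1. None of the 12 Frizzled and LRP receptors was called in any of the 4 comparisons, and an unadjusted p under 0.05 was found for 1 of 10 tested with DAC in siLuc and 2 of 10 in siStau1, beside 28.9% and 19.0% of all tested genes, of which 13.5% and 7.46% were called. LGR4, the R-spondin receptor expressed here, fell from 3.90 to 1.31 FPKM with DAC in siStau1 (q-value 0.0214 in the authors' deposited table), and measured 2.97 and 0.978 FPKM in siLuc, which was not called. LGR6 was called higher with DAC in siLuc and lower with knockdown under DAC, but stayed at or under 0.640 FPKM, and it was named after its values were seen.

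Of the 10 genes of the degradation complex and Dishevelled, AXIN1, the constitutive paralog of AXIN2, rose with DAC in siLuc from 5.72 to 12.7 FPKM (q-value 0.0343), and DVL1, a Dishevelled protein, from 24.8 to 70.5 FPKM (q-value 0.00162), per the authors' deposited table. In siStau1 neither was called, with 4.86 and 8.43 FPKM for AXIN1 (q-value 0.264) and 19.7 and 48.5 FPKM for DVL1 (q-value 0.221). Both lie in bins of high GC content, and their log2 ratios in siLuc became 0.07 and 0.30 after centring. APC had 6.93 FPKM in siLuc DMSO and 9.35 in siLuc DAC and was not called (q-value 0.805 in the authors' deposited table). CTNNB1 measured 163 FPKM in DMSO and 120 with DAC under siLuc, and 168 and 137 FPKM under siStau1. It was not called in any of the 4 comparisons, and its log2 ratio of −0.44 with DAC in siLuc was 0.00 relative to its GC bin. Among the nuclear partners, BCL9L, a coactivator that binds beta-catenin, rose with DAC in siLuc from 3.52 to 18.7 FPKM (q-value 0.0302 in the authors' deposited table), by a log2 ratio of 2.37, or 1.30 after GC centring. In siStau1 it had 2.50 and 9.39 FPKM and was not called (q-value 0.270).

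Among 16 other target genes, CCND1, which encodes the cell cycle regulator cyclin D1, rose with DAC in both arms, reaching 189 FPKM from 69.6 under siLuc and 168 from 63.2 under siStau1 (q-value 0.00162 in each in the authors' deposited table). Its log2 ratios of 1.44 and 1.40 were 1.28 and 1.23 after GC centring. SOX4, a transcription factor, fell in both arms, to 7.85 FPKM from 33.5 under siLuc and to 11.1 from 31.8 under siStau1 (q-value 0.00162 in each). SOX9, a transcription factor of the crypt base, rose in siStau1 from 4.69 to 11.3 FPKM (q-value 0.0260 in the authors' deposited table), and measured 5.58 and 10.3 FPKM in siLuc, which was not called. For none of these genes was the difference between the arms tested. CDX1 was called higher in both arms at under 1 FPKM and was named after its values were seen. Of the 16 other targets, 3 of 11 tested were called with DAC in siLuc and 4 of 13 in siStau1, in both directions. Among the 10 members 0 of 7 and 0 of 6 were called, beside 13.5% and 7.46% of all tested genes. Whether the 2 lists differ was not tested.

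**Figure D4:**
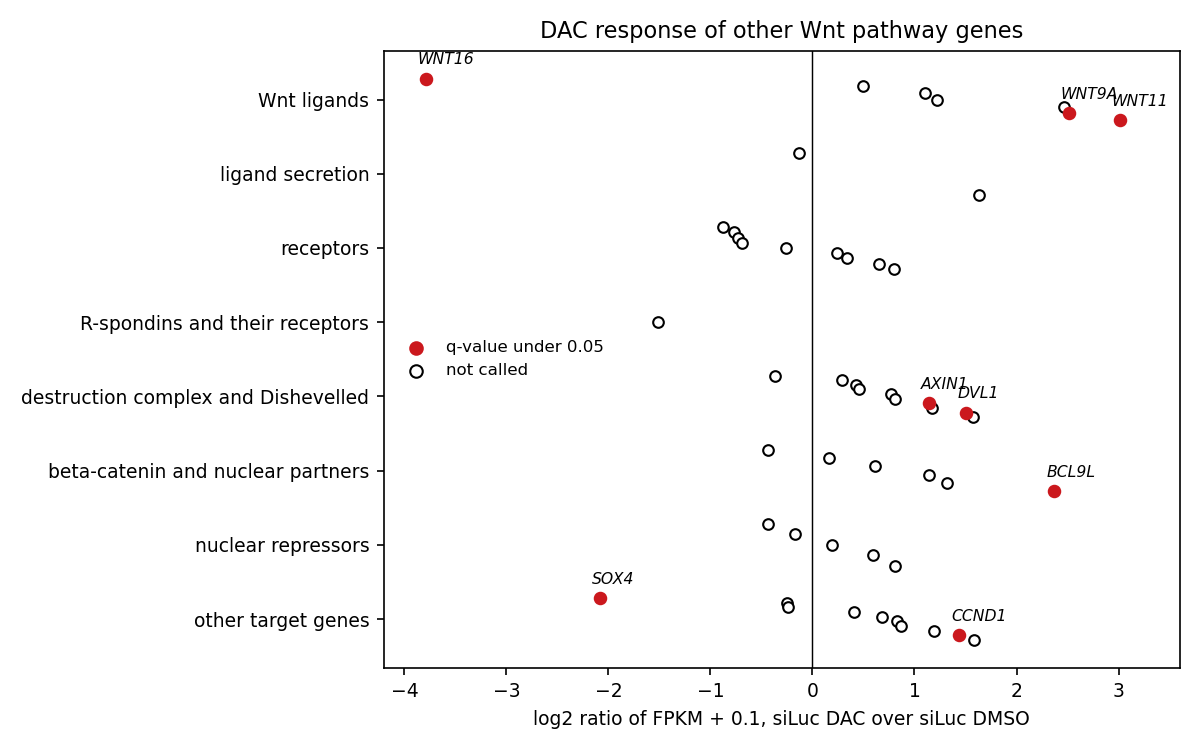
Log2 ratio of FPKM + 0.1, siLuc DAC over siLuc DMSO, for the 50 other Wnt pathway genes with at least 1 FPKM in some group, by role. Red points were called at a q-value under 0.05 in the authors' deposited table and open points were not. WNT9A, WNT11, BCL9L, DVL1, AXIN1 and CCND1 lie above 0, and WNT16 and SOX4 below it.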

How the data were processed

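Total RNA of 8 libraries in 4 groups was used. The 3 libraries of RNA bound by the J2 antibody were not used here, because their tables list repeat elements and no genes. The kit was stranded and followed removal of ribosomal RNA, per the labels' protocols. The authors deposited 1 FPKM value per gene and group in the layout of Cuffdiff, per the file headers, with p-values and q-values for 6 pairwise comparisons. The submitters' processing notes name HISAT2 2.1.0, Cuffdiff 2.2.1 and the hg38 build, without saying which made which file. The deposited q-value was recomputed as the Benjamini-Hochberg value over 102180 tests of all 6 comparisons (largest gap 5.3e-07), and a gene was called at a q-value under 0.05. With 1 value per group no test, standard deviation or interval over libraries could be computed, so the calls are the authors'.

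Computed here with Python 3.11.15, numpy 2.4.6 and pandas 2.3.3 were log2 ratios with a pseudocount of 0.1 FPKM, which understate the change of low genes, and the same ratios minus the median of protein-coding genes (at least 1 FPKM in both groups) in the same of 20 bins of GC content of the longest GENCODE 29 transcript. All 58699 identifiers match that release, whose positions on GRCh38 are given. Promoter windows were cut to the 250 bases before the start, leaving out the 50 transcribed bases. For 1 gene, not among those named, the table holds more than 1 value for a group. The adjustment and the centring were tested on simulated data. All members were named. Other pathway genes were named if called in at least 1 of the 4 comparisons with at least 1 FPKM in some group, with APC and CTNNB1 named in any case. The members, the lists and the alternatives (pseudocounts, scaling, centring, limits on q-values, filters) were chosen with earlier results of these data known.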

Additional observations from a re-analysis of the deposited data

How the results depend on the processing

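No paired analysis was possible because the table gives 1 value per group and none per library, and for the same reason no library could be left out. The number of members called was 0 in each of the 4 comparisons. With DAC in siLuc it was 1 (AXIN2) when p-values were adjusted within that comparison only, and 2 (AXIN2 and NKD1) at a q-value limit of 0.10. At that limit 17.7% of all tested genes were called, and 16.8% with the adjustment within the comparison. A limit of 0.01, or leaving out genes under 1 FPKM in both groups, gave 0 in each comparison, beside 0.197% to 14.2% of all tested genes. The median of the 10 genes with DAC in siLuc was 0.68, and 1.40 with a pseudocount of 0.01, because 3 genes were listed at 0 in DMSO. With knockdown in DMSO it was 0, and 0.13 with centring within GC bins and −0.17 over members with at least 1 FPKM in both groups. Of 30 log2 ratios of single members, 9 changed sign with centring within GC bins, all of them uncalled, and 0 with either other pseudocount. With the protein-coding total or the median of protein-coding genes as the base, ASCL2 with knockdown in DAC changed sign, from −0.05 to 0.0084 and 0.04. The difference between the siRNA arms had a median of −0.33, and of −0.34 to −0.10 under 5 alternatives chosen after seeing the data. Without values per library, the smallest difference that these data could have shown for a member is unknown.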
